A study of Mus musculus with 9 samples.

Results

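The cytosolic ribosomal protein genes were followed through an RNA sequencing study of ageing mouse muscle and of a compound given to aged mice. Members were the genes whose symbol is Rpl or Rps with a number (with or without a suffix such as a, x, l or rt), plus Rpsa, Rplp0, Rplp1 and Rplp2. Of the 55536 genes in the deposited tables, 89 symbols matched. The 86 with at least 10 counts over the 9 libraries were kept, 52 of the large subunit and 34 of the small subunit by symbol. The other 3 are the paralog Rpl10l and the annotated processed pseudogenes Rpl6l and Rpl32l, which had 3, 0 and 0 counts. After the filter on low counts 85 of the 86 were tested, among 14384 genes. The untested one was Rpl39l, with 34 counts in all. Of the 86, 3 (Rpl37rt, Rps12l1 and Rps4l) are annotated as processed pseudogenes although their symbols carry no such mark.

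Cytosolic ribosomes translate nearly all cellular messages. Each is built from a large and a small subunit in which ribosomal proteins fold and hold the ribosomal RNA, and most of the proteins are present in equal numbers. Their messages are short, abundant and usually begin with a pyrimidine tract (the 5′ terminal oligopyrimidine or TOP motif), through which mTORC1 signalling sets their translation. In skeletal muscle, ribosome content limits protein synthesis capacity, and the paralog Rpl3l is made in striated muscle in place of much of Rpl3. Most of these genes have left many processed pseudogenes, near-identical copies without introns, elsewhere in the mouse genome.

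All mice were male ICR, an outbred stock. The aged GW8510 group (replicates 1, 3 and 4) was 18 months old and received GW8510 at 2 mg/kg, injected into the peritoneum each day for 14 days. The aged vehicle group (replicates 1, 3 and 4) was also 18 months old, and the young vehicle group (replicates 2, 3 and 4) was 2 months old. GW8510 was dissolved in sodium carboxymethylcellulose. The labels do not name the muscle and do not say that each library is a separate animal, so p-values measure the spread between these samples. Libraries held 21718930 to 27437937 counts. Muscle fibre markers were high in every library, with 10 of 10 tested and a summed level of at least 127000 CPM, which are counts scaled to library size with TMM factors.

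The start regions of 64 of the 86 members are in the RefSeq promoter table (GRCm38.p6). Windows are shown for Rpsa, Rps27 and Rpl28, which were higher in aged vehicle muscle like most members and hold the letters searched, and for Rpl3l, which did neither. The windows of Rps24 and Rps21 hold none. Each line runs from 40 bases before to 20 bases after the annotated start, with the letters TTTCC, or GGAAA on the other strand, in capitals.
Rpsa (chr9:120127726-120127785, plus strand): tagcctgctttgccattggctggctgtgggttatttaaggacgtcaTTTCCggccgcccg
Rps27 (chr3:90213629-90213688, minus strand): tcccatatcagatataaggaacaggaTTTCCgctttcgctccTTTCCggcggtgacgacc
Rpl28 (chr7:4792925-4792984, plus strand): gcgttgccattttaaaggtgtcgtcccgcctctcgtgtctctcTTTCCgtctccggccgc
Rpl3l (chr17:24727786-24727845, plus strand): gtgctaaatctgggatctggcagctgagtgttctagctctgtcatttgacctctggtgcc
TTTCC, on either strand, stood in this 60-base window in 23 of 64 members (35.9%), 15.6% of the promoters of genes tested and 17.0% of all 27025 in the table. CCGGAAG, the core of ETS-family sites, stood in the 300-base promoter of 24 of 64 members (37.5%), 17.6% of the promoters of genes tested and 9.12% of all. These are matches of letters only, in windows placed by annotation.

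The copies share most of their sequence with the genes, which bears on every count below. For Rpsa, Rps24 and Rps2, a 60-base coding stretch is shown beside the same stretch of a copy on another chromosome, with the differing bases in capitals. The sequences are from GENCODE M21 transcripts (GRCm38) in the sense of the gene, and each stretch was chosen as one with the most differences.
Rpsa, coding bases 160 to 219: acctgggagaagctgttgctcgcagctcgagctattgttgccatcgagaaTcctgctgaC
Rpsa-ps10: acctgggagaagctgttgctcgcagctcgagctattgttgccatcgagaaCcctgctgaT
Rps24, coding bases 321 to 380: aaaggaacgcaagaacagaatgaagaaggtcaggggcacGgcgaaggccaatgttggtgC
Rps24-ps3: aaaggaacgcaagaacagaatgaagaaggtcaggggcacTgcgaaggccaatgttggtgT
Rps2, coding bases 25 to 84: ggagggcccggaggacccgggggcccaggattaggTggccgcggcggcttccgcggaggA
Rps2-ps13: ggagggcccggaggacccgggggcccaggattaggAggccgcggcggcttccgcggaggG
Rpsa (chr9:120127689-120132369) and the pseudogene Rpsa-ps10 (chr3:150072658-150073542) differed at 6 of 885 coding bases. Rps24 (chr14:24487125-24496959) and Rps24-ps3 (chrX:79195047-79195448) differed at 4 of 399. Rps2 (chr17:24718116-24721929) and Rps2-ps13 (chrX:52898588-52899469) differed at 7 of 879.

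Together the members made up a few percent of all transcripts in each library, on the deposited per-length scale of TPM, which divides by gene length and library total. Their share was 4.91%, 3.85% and 3.16% in aged GW8510 libraries 1, 3 and 4. It was 3.81%, 3.61% and 5.97% in aged vehicle libraries 1, 3 and 4, and 3.27%, 3.50% and 3.15% in young vehicle libraries 2, 3 and 4. Aged vehicle library 4 was highest, every aged vehicle library stood above the young ones, and aged GW8510 library 4 lay among the young ones. Among the 10 members highest in mean TPM were Rps27 (1649 TPM), Rplp1 (1325), Rpl36 (1320), Rps24 (1272), Rps15 (1253), Rpl23a (1177), Rpl13a (1095) and Rps29 (925). Deposited levels ran as low as 7.33 TPM for Rpl5, whose family reads are mostly credited to a copy, and 0.312 TPM for Rpl39l.

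The members moved as 1 block across libraries. Pearson's r between a member's log2 CPM and the median of the other members over the 9 libraries had a median of 0.965 and was at least 0.9 for 66 of 85. The libraries share their depth and composition with every gene in them, so this is a description. After each gene was centred on its own mean, the median member stood at 0.52, 0.22 and -0.29 (log2) in aged GW8510 libraries 1, 3 and 4. It stood at -0.01, 0.03 and 0.50 in aged vehicle libraries 1, 3 and 4, and at -0.46, -0.20 and -0.24 in young vehicle libraries 2, 3 and 4. Both subunits kept this order. The 2 highest libraries were aged vehicle 4 and aged GW8510 1 for 65 of 85 members, and the lowest was a young vehicle library for 71.

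**Figure D1:**
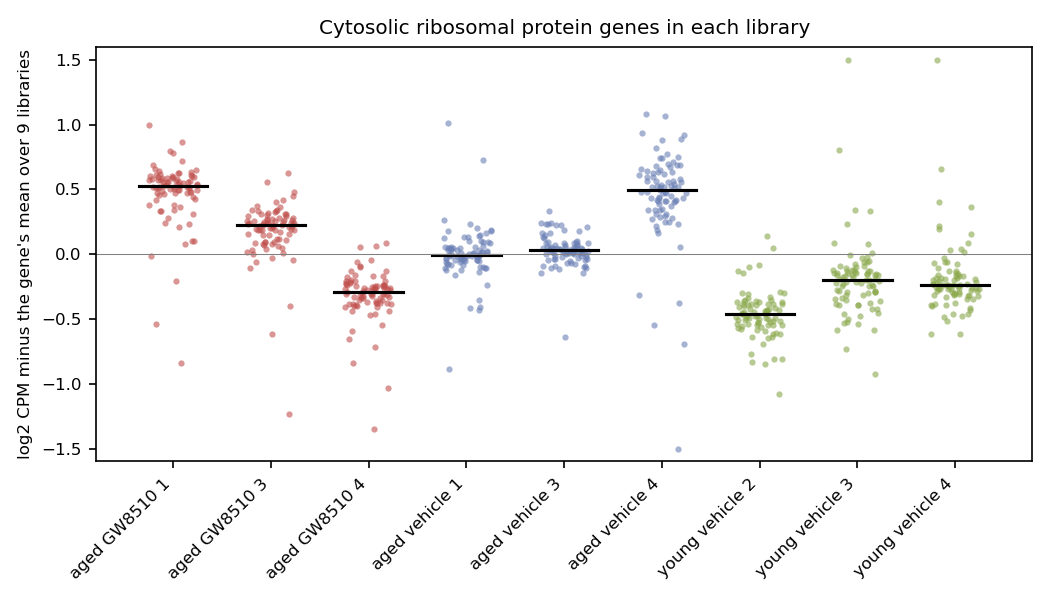
Level of each tested ribosomal protein gene in each library, as log2 CPM minus the gene's mean over the 9 libraries (points), with the median of the 85 genes (bars). Aged GW8510 1 and aged vehicle 4 stand highest at 0.52 and 0.50, and young vehicle 2 lowest at -0.46; points beyond 1.5 are drawn at the edge.

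With age, nearly all members were higher, each by a small amount. In aged vehicle over young vehicle muscle, 80 of 85 log2 fold changes were above 0 (51.1% of all genes tested). Their median was 0.48 (25th to 75th percentile 0.37 to 0.62), against 0.01 over all genes. Large-subunit members had a median of 0.47 and small-subunit members 0.52. Aged vehicle libraries stood above every young vehicle library, without overlap, for 67 of 85 members (background 12.7% of all genes) and below for 0 (background 13.5%).

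Gene by gene, the spread between libraries was too wide for most of these differences to pass. By edgeR's quasi-likelihood test with Benjamini-Hochberg adjustment at 0.05, 1 member rose (Rpsa; background 0.521% of genes) and 0 fell (background 0.695%). At an unadjusted p under 0.05 there were 35 of 85 (background 19.2%), all but Rps2 of them higher. DESeq2 called 6 members higher (Rpl26, Rps20, Rps21, Rps24, Rps7 and Rpsa; background 2.82% of genes) and Rps2 lower (background 3.96%). Rpl26 had a log2 fold change (edgeR) of 0.715 alone and of 0.413 with the counts of its copy added. In the authors' deposited table, 10 were called higher (Rpl22l1, Rpl37a, Rpl41, Rps20, Rps21, Rps24, Rps27, Rps29, Rps7 and Rpsa; background 0.538% of all genes listed) and Rps2 lower (background 0.931%). Here and below, the authors' background is over all 55536 genes listed, including those too low to test here. It is therefore not on the scale of the backgrounds over 14384 genes.

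The size of the age difference rested partly on 1 library. Without aged vehicle library 4 the median was 0.29, with 78 of 85 above 0, and 67 members did not overlap upward (17.8% of all genes with those libraries). On the TPM scale, with limma on log2(TPM + 1), the median was 0.36 with 81 of 85 above 0, and 34 members did not overlap (7.05% of all genes on that scale).

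Among large-subunit proteins, Rpl36 had 156, 165 and 208 CPM in aged vehicle libraries 1, 3 and 4, against 101, 119 and 128 CPM in young vehicle libraries 2, 3 and 4. The groups did not overlap, but the log2 fold change of 0.60 (SE 0.22) did not pass (edgeR adjusted p = 0.196). Rpl13a, which also takes part in an interferon-linked silencing complex, had 283, 314 and 439 CPM in aged vehicle muscle and 213, 243 and 211 CPM in young vehicle muscle. Its log2 fold change was 0.64 (edgeR adjusted p = 0.205), again with every aged vehicle library above the young ones.

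The stalk of the large subunit, which recruits elongation factors, is formed by Rplp0, Rplp1 and Rplp2. Rplp2 had 193, 201 and 314 CPM in aged vehicle libraries 1, 3 and 4, against 137, 159 and 163 CPM in young vehicle libraries 2, 3 and 4. Rplp1 had 291, 316 and 355 CPM against 217, 268 and 288 CPM in the same order, and Rplp0 had 640, 673 and 824 CPM against 502, 639 and 566 CPM. In all 3 the lowest aged vehicle library was above the highest young one, for Rplp0 and Rplp1 by a narrow margin. The log2 fold changes were 0.63, 0.32 and 0.32 for Rplp2, Rplp1 and Rplp0, and none passed (edgeR adjusted p = 0.234, 0.452 and 0.360).

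Among small-subunit proteins, Rps27 was the member highest in TPM. It had 144, 140 and 220 CPM in aged vehicle libraries 1, 3 and 4 and 79.5, 101 and 101 CPM in young vehicle libraries 2, 3 and 4. The groups were apart, with a log2 fold change of 0.84 (SE 0.29, edgeR adjusted p = 0.181). Rps21 had 108, 110 and 141 CPM in aged vehicle muscle and 64.1, 65.9 and 72.8 CPM in young vehicle muscle, a log2 fold change of 0.83 (edgeR adjusted p = 0.102). Rps20 had 206, 219 and 373 CPM in aged vehicle muscle, of which library 4 stood well above the other 2, and 129, 134 and 151 CPM in young vehicle muscle. Its log2 fold change was 0.95 (SE 0.32, edgeR adjusted p = 0.162). Rps7 had 150, 145 and 239 CPM in aged vehicle muscle and 83.4, 116 and 88.1 CPM in young vehicle muscle, again apart, with a log2 fold change of 0.90 (edgeR adjusted p = 0.0913) that was 0.46 with its 4 copies. Rps27a, made as a fusion with ubiquitin, differed less, with a log2 fold change of 0.45 (edgeR adjusted p = 0.357).

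Ribosomal proteins whose symbols fall outside the naming rule were also above 0. Fau, a ubiquitin-like fusion, was at 0.52, Rps3a1 at 0.40 and Rack1, a scaffold on the small subunit, at 0.32 (log2 fold change of aged vehicle over young vehicle), and none passed (edgeR adjusted p = 0.235, 0.328 and 0.426).

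**Figure D2:**
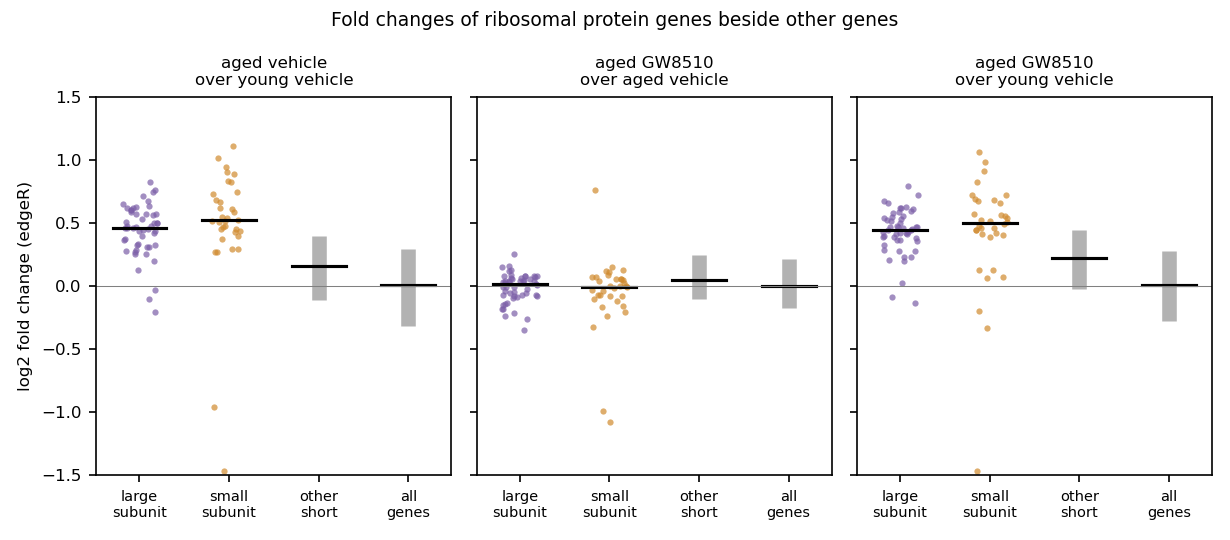
Log2 fold changes (edgeR) of large-subunit and small-subunit genes (points, with their medians as bars) in 3 comparisons, beside the median (bar) and middle 50% (grey) of other protein-coding genes under 1000 bases and of all genes tested. Members centre near 0.47 and 0.52 over young vehicle for aged vehicle, 0.45 and 0.50 for aged GW8510, and near 0 between the aged groups; Rps2, at -2.95 and -2.92 over young vehicle, is drawn at the edge.

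No difference with GW8510 was detected among the members with 3 libraries per group. For aged GW8510 over aged vehicle the median log2 fold change was 0.00 with 44 of 85 above 0, against 0.01 over all genes. edgeR called 0 members higher and 0 lower (background 0.0% of genes each way), and 2 of 85 had an unadjusted p under 0.05 (background 4.5%). DESeq2 called 0 higher (background 0.0626%) and 0 lower (background 0.0139%), and in the authors' deposited table the calls were 0 higher (background 0.0108%) and 0 lower (background 0.0%). Groups did not overlap upward for 0 members (background 3.89%) and downward for 1 (background 3.33%), the retrotransposed Rps27rt.

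The median depended on single libraries. Without aged GW8510 library 1 the median was -0.19 with 4 of 85 above 0, without aged GW8510 library 4 it was 0.18 with 74 above 0, and without aged vehicle library 4 it was 0.16 with 75 above 0. On the TPM scale it was -0.16 with 3 of 85 above 0, where all genes had a median of -0.10. The sign of the median therefore changed with 1 library or with the scale.

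Rps27rt, an intronless copy of Rps27 that the rule keeps, had 2.77, 4.83 and 5.25 CPM in aged GW8510 libraries 1, 3 and 4. It had 10.3, 5.89 and 9.35 CPM in aged vehicle libraries 1, 3 and 4, and 2.91, 3.003 and 5.85 CPM in young vehicle libraries 2, 3 and 4. Aged vehicle libraries were all highest, the smallest gap being to young vehicle library 4. The log2 fold change was -0.99 for aged GW8510 over aged vehicle (edgeR adjusted p = 0.934) and 1.12 for aged vehicle over young vehicle (edgeR adjusted p = 0.148). Rps27 itself was at 0.15 in the GW8510 comparison (edgeR adjusted p = 0.973).

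Other members at the ends of this comparison differed little or were rare transcripts. Rps12l1 was at -1.08, Rpl3 at -0.35 and Rpl26, a binder of the p53 message, at -0.26. With copies added, Rpl26 was at 0.00, its copy holding 38.7% of the family, and Rpl3 was at -0.37. At the positive end Rps4l was at 0.76, Rpl3l at 0.26, Rpl9 at 0.16 and Rpl8 at 0.15. The edgeR adjusted p-values of these 7 were at least 0.934.

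Most members were also higher in aged GW8510 than in young vehicle muscle. The median was 0.47 with 80 of 85 above 0 (0.01 over all genes), and edgeR called 0 members higher (background 0.334%) and 0 lower (background 0.417%). DESeq2 called Rpl36, Rps24, Rps27 and Rpsa higher (background 2.95%) and Rps2 lower (background 3.1%). In the authors' deposited table, 12 were called higher (608 of all 55536 genes listed) and Rps2 lower (664 of those listed). The 12 were Rpl13a, Rpl22l1, Rpl36, Rps19, Rps20, Rps21, Rps24, Rps25, Rps27, Rps7, Rps9 and Rpsa. By edgeR, 30 of 85 had an unadjusted p under 0.05 (background 16.7%). Groups did not overlap upward for 15 members (background 12.9%) and downward for 0 (background 12.8%). On the TPM scale these counts were 6 upward (5.01% of all genes) and 2 downward (21.7% of all genes). With limma on log2(TPM + 1) the median was 0.19 with 69 of 85 above 0, where all genes had a median of -0.14. Without aged GW8510 library 4, whose members lay in the young range, 74 of 85 did not overlap (22.8% of all genes with those libraries), and the median was 0.64. Without aged GW8510 library 1 the median was 0.27. Both comparisons with young muscle share the young vehicle libraries. The most positive members were Rpsa, Rps27 (0.99, edgeR adjusted p = 0.133), Rps24, Rps20 (0.83) and Rpl22l1 (0.80, edgeR adjusted p = 0.168), and the most negative were Rps2, Rps12l1 (-0.33), Rps4l (-0.20), Rpl7l1 (-0.14) and Rpl14 (-0.09). The Rpl14 value is uncertain: it was 0.46 with its copy, which held 68.2% of the family, and ran from -0.99 without aged GW8510 library 1 to 0.29 without aged GW8510 library 3.

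Rpsa, the small-subunit protein that is also known as the laminin receptor precursor, had the one difference that passed. It had 597, 535 and 409 CPM in aged GW8510 libraries 1, 3 and 4, 427, 465 and 594 CPM in aged vehicle libraries 1, 3 and 4, and 252, 207 and 275 CPM in young vehicle libraries 2, 3 and 4. All 6 aged libraries stood well above the young ones. The log2 fold change of aged vehicle over young vehicle was 1.02 (SE 0.20, edgeR adjusted p = 0.0481), and that of aged GW8510 over young vehicle was 1.07 (SE 0.20, edgeR adjusted p = 0.0508). The first did not pass when any library other than aged GW8510 4 was left out (log2 fold changes 0.87 to 1.12), with only the 6 libraries compared, or with limma on TPM.

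The reads of Rpsa are split with its copy. Rpsa-ps10 had 0 counts in 5 of the 6 aged libraries and 0.37 in aged GW8510 library 3, against 3239, 6714 and 3331 counts in young vehicle libraries 2, 3 and 4. Summed with its 5 copies, the Rpsa family had 597.5, 535.8 and 409.2 CPM in aged GW8510 muscle, 427.5, 465.5 and 594.5 CPM in aged vehicle muscle, and 364.4, 492.7 and 406.2 CPM in young vehicle muscle. The family sums of the 3 groups overlapped, with a log2 fold change of 0.24 for aged vehicle over young vehicle (edgeR adjusted p = 0.546). The difference called for Rpsa alone thus did not pass in the sum.

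Copies were found by sequence. Of 2838 annotated pseudogenes and genes with Gm or -ps symbols and at least 10 counts, 193 matched 61 of the members at 80% identity or more over at least 50% of the copy. Together they held 17.2% to 19.0% of the counts of the member families in each library. In 10 families the copies held over 50% of the counts, from 62.1% for Rpl27a to 97.5% for Rps18, with Rpl12 at 97.0%, Rpl5 at 96.5%, Rps12 at 95.1% and Rps2 at 88.7%. The levels of these members are uncertain, since the deposited counts are estimates that need not be whole.

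Another gene with such a copy was Rps24, a small-subunit protein mutated in some people with Diamond-Blackfan anaemia. Rps24 had 500, 399 and 269 CPM in aged GW8510 libraries 1, 3 and 4, 356, 352 and 457 CPM in aged vehicle libraries 1, 3 and 4, and 173, 246 and 203 CPM in young vehicle libraries 2, 3 and 4. Every aged library stood above the young ones. Rps24-ps3 had 901, 290 and 906 counts in young vehicle libraries and at most 0.02 in the aged ones. In contrast to Rpsa, the family sum had a log2 fold change of 0.74 for aged vehicle over young vehicle (edgeR adjusted p = 0.144), beside 0.91 for the gene alone (edgeR adjusted p = 0.0969).

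Rps2, whose protein lies near the ribosome's messenger entry, was the most negative member. It had 25.8, 24.5 and 18.3 CPM in aged GW8510 muscle, 20.3, 24.0 and 23.2 CPM in aged vehicle muscle, and 17.7, 256 and 247 CPM in young vehicle libraries 2, 3 and 4. Young vehicle library 2 was as low as the aged ones, and the other 2 young libraries were far higher. The log2 fold change of aged vehicle over young vehicle was -2.95 (SE 0.73, edgeR adjusted p = 0.0841). Most reads of the family went to Rps2-ps13 and Rps2-ps10. With its 24 copies, the Rps2 family had 912, 710 and 545 CPM in aged GW8510 muscle, 620, 651 and 720 CPM in aged vehicle muscle, and 461, 648 and 618 CPM in young vehicle muscle. On this sum the log2 fold change was 0.21, above 0 like most members.

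Rpl5, which carries the 5S ribosomal RNA and binds Mdm2, is credited to a copy almost entirely. Rpl5 had 9.94, 10.6 and 8.68 CPM in aged GW8510 muscle, 9.86, 9.69 and 7.10 CPM in aged vehicle muscle, and 10.2, 6.51 and 11.9 CPM in young vehicle muscle. The pseudogene Gm15500 (chr7:114705217-114706235), identical to Rpl5 over all 891 coding bases, had 350, 278 and 215 CPM in aged GW8510 muscle, 265, 241 and 395 CPM in aged vehicle muscle, and 199, 224 and 218 CPM in young vehicle muscle. The sum of the family had a log2 fold change of 0.47 for aged vehicle over young vehicle, against -0.10 for Rpl5 alone.

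**Figure D3:**
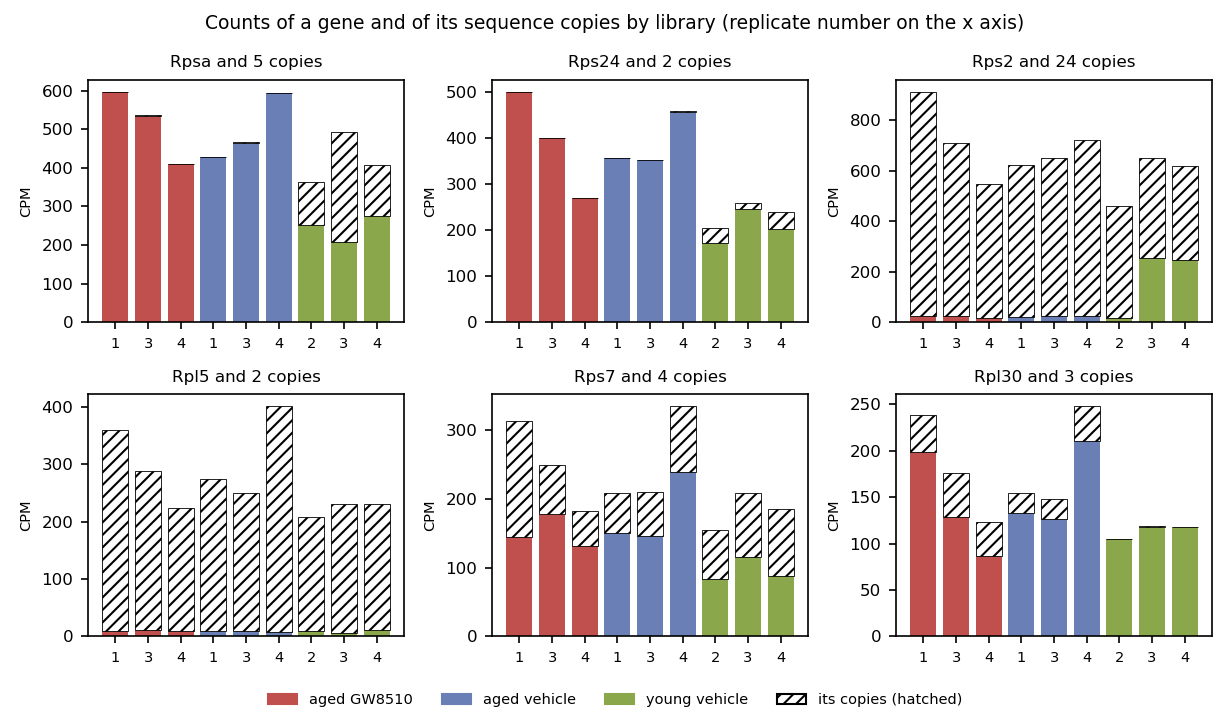
CPM of a gene (filled bars) and of its sequence copies together (hatched, stacked on top) in each library, for 6 families. Copies of Rpsa and Rps24 hold reads in young vehicle libraries, copies of Rpl30 hold reads in aged ones, Rpl5 is nearly all copy, and Rps2 itself is high in young vehicle libraries 3 and 4 (256 and 247 CPM).

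With copies added, the members lay closer together. For aged vehicle over young vehicle the median stayed at 0.48, the 25th to 75th percentile ran from 0.44 to 0.61 in place of 0.37 to 0.62, and 82 of 85 were above 0 in place of 80. edgeR then called 0 members higher (background 0.495%) and 0 lower (background 0.663%), with 34 at an unadjusted p under 0.05 (background 19.1%). The 3 that stayed below 0 were Rpl3l (-0.03), Rpl7l1 (-0.19) and Rps4l (-0.96), chosen here after their values were seen. They are a striated-muscle paralog, a relative of Rpl7 and an annotated pseudogene. Copies were sought only for protein-coding members, so adding copies could not change the sign of Rps4l. For Rpl3l, the log2 fold change of aged vehicle over young vehicle ran from -0.18 to 0.16 with 1 library left out. For aged GW8510 over aged vehicle the median with copies was 0.01.

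**Figure D4:**
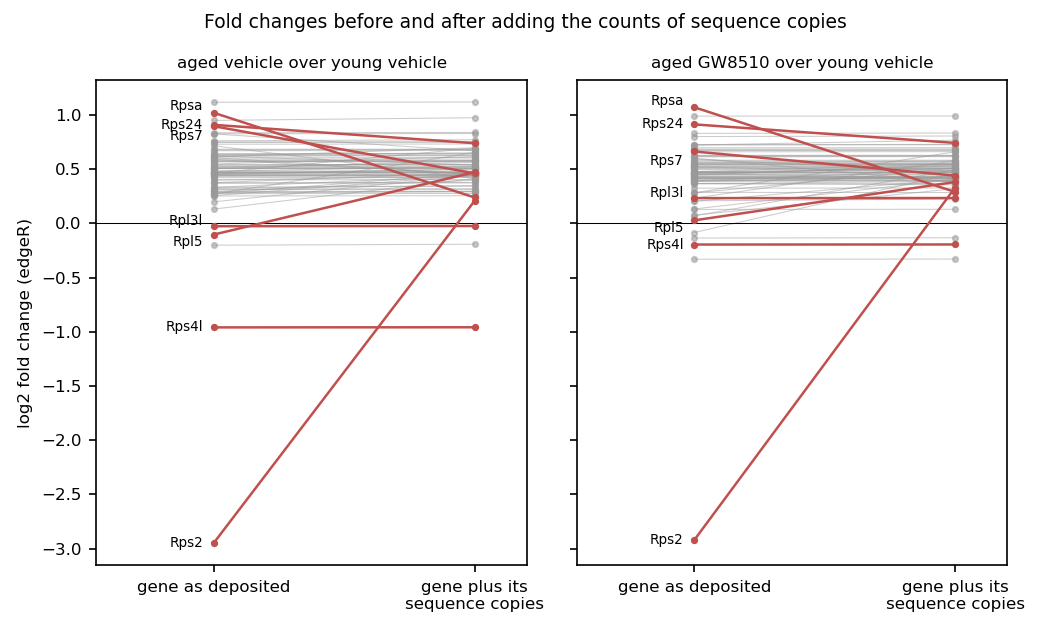
Log2 fold change (edgeR) of each tested gene as deposited (left of each panel) and after the counts of its copies were added (right), for aged vehicle and for aged GW8510 over young vehicle. Rps2 moves from below -2.9 to 0.21 and 0.33, and Rpsa from above 1 to 0.24 and 0.29. Rpl3l, without matched copies, and Rps4l, a pseudogene for which no copies were sought, keep their place.

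Of the paralog pair Rpl3l and Rpl3, Rpl3l was the higher in every library, also with the copies of Rpl3 counted. Rpl3l (chr17) and Rpl3 (chr15) differ at 312 of 1206 aligned coding bases, and a stretch of coding bases 163 to 222 of Rpl3l is shown beside Rpl3 (differences in capitals).
Rpl3l: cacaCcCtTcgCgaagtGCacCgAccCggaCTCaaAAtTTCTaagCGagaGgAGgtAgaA
Rpl3: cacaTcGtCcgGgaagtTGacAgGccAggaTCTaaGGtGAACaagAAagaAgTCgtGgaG
Rpl3l had 571, 542 and 581 TPM in aged GW8510 libraries 1, 3 and 4, 562, 583 and 418 TPM in aged vehicle libraries 1, 3 and 4, and 627, 527 and 558 TPM in young vehicle libraries 2, 3 and 4. Rpl3 had 13.6, 17.2 and 14.3 TPM in aged GW8510 muscle, 12.8, 16.2 and 37.7 TPM in aged vehicle muscle, and 20.8, 12.5 and 12.6 TPM in young vehicle muscle. Rpl3l was 11.1 to 44.2 times Rpl3 in every library, and the low end was aged vehicle library 4, where Rpl3l was lowest and Rpl3 highest. In CPM, Rpl3l was at -0.03 (log2) for aged vehicle over young vehicle (edgeR adjusted p = 0.953) and at 0.26 for aged GW8510 over aged vehicle (edgeR adjusted p = 0.934). Rpl3 counts are themselves uncertain, since its copy Rpl3-ps1 differs at 2 of 1209 coding bases and held 69.5% of the family. With the TPM of this copy added to Rpl3, an alternative chosen after seeing the data, Rpl3l was 9.60 to 11.6 times Rpl3 in aged GW8510 libraries, 2.85 to 13.9 times in aged vehicle libraries and 9.23 to 14.0 times in young vehicle libraries.

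Over the 9 libraries, the r of Rpl3l with the median of the other members was -0.11. Its lowest centred level was -0.55 (log2), in aged vehicle library 4, where the median member stood at 0.50. Rpl3l stood at 0.23, 0.20 and 0.09 in aged GW8510 libraries 1, 3 and 4. It stood at 0.01 and 0.19 in aged vehicle libraries 1 and 3, and at -0.08, -0.11 and 0.02 in young vehicle libraries. The r without aged vehicle library 4 was not computed. An r below 0 was also seen for Rpl7l1 (-0.31), Rps4l (-0.29), Rps2 (-0.27) and Rpl5 (-0.16), and 7 of 85 had an r under 0.5.

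Of the 8 paralog pairs listed, 7 had both members kept and were compared as a log2 ratio of TPM, with an exact permutation test over libraries. With 3 libraries against 3 the smallest two-sided p is 0.1, so no such comparison could pass. Against the young libraries, the 6 aged libraries gave the lowest p for Rps27l over Rps27. Rps27l, a stress-induced relative, was 0.146, 0.128 and 0.161 times Rps27 in aged GW8510 muscle, 0.185, 0.163 and 0.167 times in aged vehicle muscle, and 0.194, 0.197 and 0.217 times in young vehicle muscle. All aged libraries were below the young ones, by 0.36 on the log2 scale (exact permutation p = 0.0238, 0.167 after Benjamini-Hochberg adjustment over the 7 pairs). Rpl7l1 over Rpl7 was lower in aged muscle by 0.66 (log2 difference -0.66, exact permutation p = 0.0595, adjusted 0.208). None of the pairs passed.

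**Figure D5:**
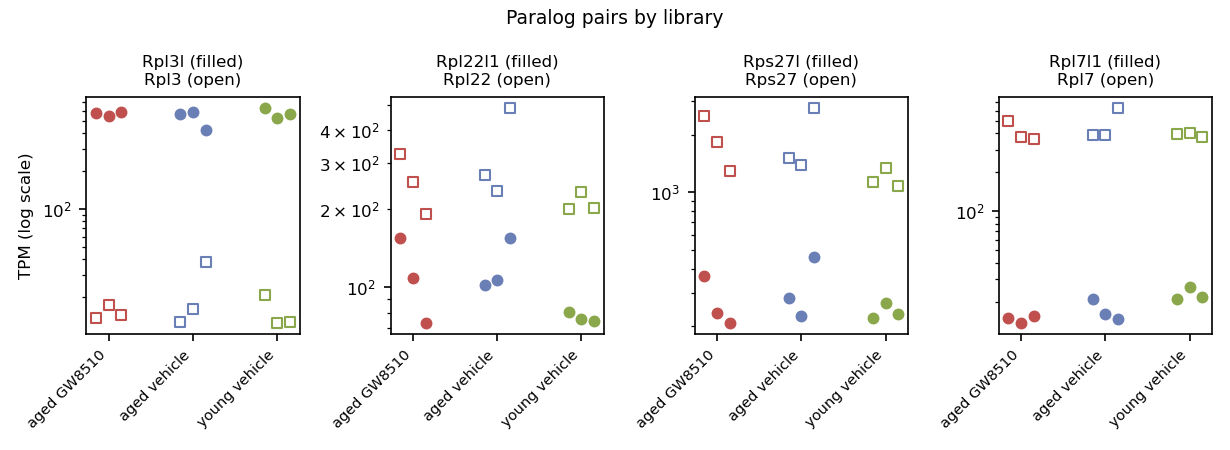
TPM on a log scale of 4 paralog pairs by group (filled circles for the paralog, open squares for the main gene; one point a library). Rpl3l lies far above Rpl3 in every library, while the paralogs of Rpl22, Rps27 and Rpl7 lie below them.

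Other translation genes were read in the same fit. Initiation factors had a median log2 fold change of 0.34 for aged vehicle over young vehicle with 34 of 38 above 0, and -0.20 for aged GW8510 over aged vehicle with 4 of 38 above 0. Ribosome assembly and ribosomal RNA synthesis genes had 0.15 with 50 of 65 above 0 and -0.15 with 13 of 65 above 0, in the same 2 comparisons. Over all genes tested, 51.15% and 50.87% were above 0 in these comparisons. In aged vehicle library 4 initiation factors stood at 0.59 and assembly genes at 0.41 (centred log2), and in aged GW8510 library 1 at 0.13 and 0.02. Initiation factors stood at -0.035 and -0.073 in aged vehicle libraries 1 and 3. Their young vehicle levels were -0.193, -0.097 and -0.051. Assembly genes stood at -0.055 and -0.132 in aged vehicle libraries 1 and 3, and their young vehicle levels were -0.076, -0.073 and 0.018. Outside library 4, aged vehicle levels of both lists thus overlapped the young ones. Elongation factors stood at 0.28 in aged vehicle library 4 and 0.24 in aged GW8510 library 1, and mitochondrial ribosomal proteins at 0.00 and 0.23.

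Mitochondrial ribosomal proteins, which serve the separate ribosomes of mitochondria, had medians of 0.15 for aged vehicle over young vehicle (64 of 80 above 0) and 0.08 for aged GW8510 over aged vehicle (61 of 80 above 0). Elongation factors had 0.11 (8 of 10 above 0) and -0.02 (5 of 10). Other TOP messages had 0.44 (6 of 8) and -0.17 (2 of 8), regulators 0.12 (18 of 22) and -0.18 (8 of 22), and quality and recycling genes 0.14 (6 of 8) and -0.16 (2 of 8). By edgeR 0 of the 235 tested entries, counting the ribosomal proteins with other symbols, were called in any of the 3 comparisons. At an unadjusted p under 0.05 there were 28 for aged vehicle over young vehicle (background 19.2% of all genes), 5 for aged GW8510 over aged vehicle (background 4.5%) and 20 for aged GW8510 over young vehicle (background 16.7%), each a smaller share than over all genes. Among those with the smallest p for aged vehicle over young vehicle, none passing, were Eif5b (0.85), which joins the subunits, Eef1g (0.60), an elongation factor subunit, Mrpl23 (0.86) of the mitochondrial ribosome, and Ubtf (-0.41), the RNA polymerase I factor.

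Gene length moved with the members. Other protein-coding genes under 1000 bases (837) had a median log2 fold change of 0.16 for aged vehicle over young vehicle, 0.05 for aged GW8510 over aged vehicle and 0.23 for aged GW8510 over young vehicle. Their centred level was 0.28, 0.15 and -0.14 in aged GW8510 libraries 1, 3 and 4, -0.00, 0.10 and -0.02 in aged vehicle libraries 1, 3 and 4, and -0.31, -0.02 and -0.02 in young vehicle libraries 2, 3 and 4. They followed the members in the aged GW8510 libraries and not in aged vehicle library 4. Mitochondrially encoded genes took 13.8% to 18.6% of counts in aged GW8510 muscle, 10.6% to 16.1% in aged vehicle muscle and 10.3% to 10.6% in young vehicle muscle. With scaling without these genes, members had a median of 0.47 for aged vehicle over young vehicle. The median was then -0.01 for aged GW8510 over aged vehicle and 0.45 for aged GW8510 over young vehicle. Any other part of these genes, or of gene length, in the result was not tested.

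Markers of other cell types also differed. All 7 fibroblast markers were lower in aged vehicle than in young vehicle muscle, with summed levels of 217 to 506 CPM in aged GW8510, 70.2 to 448 CPM in aged vehicle and 919 to 1950 CPM in young vehicle libraries. For aged vehicle over young vehicle, edgeR called 0 of 7 (0.695% of all genes were called lower), and 6 of 7 had an unadjusted p under 0.05 (19.2% of all genes). The lowest of all was aged vehicle library 4. Macrophage markers (6 of 6 tested) summed to 39.3 to 60.6, 30.3 to 58.1 and 43.2 to 110 CPM in the same groups. Endothelial markers (6 of 6 tested) summed to 280 to 478, 239 to 325 and 335 to 405 CPM, and adipocyte markers (5 of 5) to 1.15 to 53.0, 2.09 to 5.86 and 4.82 to 18.1 CPM. Erythroid markers (5 of 5) ranged from 3.18 to 607, 12.2 to 455 and 50.03 to 110 CPM. Satellite cell and regenerating fibre markers (7 of 7 tested) summed to 52.1 to 72.9, 63.5 to 182 and 80.0 to 408 CPM. For aged vehicle over young vehicle, 4 of 7 were above 0, and 3 had an unadjusted p under 0.05 (19.2% of all genes). Aged vehicle library 4 had the highest sum of the aged libraries. Myog, Cdh15, Myf5 and Myod1 were highest there among aged libraries, while Pax7 and Myh3 were lowest there. Myh8 gave 320 of the 408 CPM in young vehicle library 4. Lymphocyte markers were near 0, with 1 of 7 tested and at most 3.0 CPM in all libraries other than aged vehicle 4 (17.2 CPM). Their part in the result was not tested, and fewer cells of a type and less RNA per cell cannot be told apart in bulk samples.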

How the data were processed

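Muscle RNA was sequenced in 9 libraries, 3 per group. The submitters' processing notes name CASAVA, HISAT2, StringTie, RSEM, DESeq2 and edgeR and the build GRCm38, with no order; strand handling and annotation are not given in the sources used here. The authors deposited, for each gene, expected counts (estimated counts that need not be whole; 91.6% of values were), TPM values, a length (the other deposited column), and their own log2 ratios with p-values and adjusted p-values. Counts were the same in all 3 deposited tables.

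Members, gene lists and tests were chosen with earlier results of these data known. Expected counts were rounded and fitted with edgeR 4.0.16 (R 4.3.3; quasi-likelihood F test, filterByExpr, TMM factors, 1 mean per group, all 9 libraries, two-sided). P-values were adjusted over all 14384 genes by Benjamini-Hochberg, with a threshold of 0.05. CPM values use TMM factors, and centred values use a prior count of 2. The fit was tested on simulated counts. Alternatives were DESeq2 1.42.0, DESeq2 size factors, scaling without mitochondrial genes, no filter, only the 6 libraries compared, a replicate block, leaving out each library, limma 3.58.1 on log2(TPM + 1), and sums with pseudogenes. Copies were matched with blastn 2.17.0 to GENCODE M21 transcripts, after the data had been seen. Paralog ratios used TPM plus 0.1. Precision is limited by 3 libraries per group at 21718930 to 27437937 counts.

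Genes named in the text are those past the threshold, the 10 highest in TPM, the 5 most positive and negative per comparison, paralog pairs, the stalk, Rpsa and Rps27a; from other lists, at most 3 with the smallest p. Rps21, Rpl28, Rpl12, Rpl30 and copies were added after their values were seen. Some genes that this rule names are not reported here.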

Additional observations from a re-analysis of the deposited data

Results flagged for a closer look

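Reads of 2 copies of Rpl30, a large-subunit protein, were seen in aged libraries and at background in young ones. Rpl30-ps9 (chrX:105278637-105278981) averaged 20.9 CPM over the 6 aged libraries and had 0, 0 and 1.49 counts in young vehicle libraries 2, 3 and 4. Gm12191 (chr11:49678710-49679057) averaged 13.2 CPM over the 6 aged libraries and had 0 counts in every young vehicle library. For 3 counts, the limit that a count of 0 allows, the young libraries give 0.103 to 0.127 CPM (counting error only). Both copies were picked for these low young counts, so a test of aged against young was decided by that choice. No p-value is given for them. Rpl30 itself had 199, 128 and 86.9 CPM in aged GW8510 libraries 1, 3 and 4, 133, 127 and 211 CPM in aged vehicle libraries 1, 3 and 4, and 105, 118 and 118 CPM in young vehicle libraries 2, 3 and 4. The cause was not tested.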

How the results depend on the processing

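The median of members was above 0 for aged vehicle over young vehicle (0.29 to 0.58) and for aged GW8510 over young vehicle (0.27 to 0.64) whichever library was left out. With limma on TPM these medians were 0.36 and 0.19. For aged GW8510 over aged vehicle the median ran from -0.19 to 0.18 with 1 library left out, and 0 members were called in every alternative.

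For aged vehicle over young vehicle, the 1 member called higher became 6 with DESeq2, 4 with no filter, 0 with only the 6 libraries compared, 0 with limma on TPM, 0 when summed with named pseudogenes, and 0 when summed with sequence copies, also without aged vehicle library 4 or aged GW8510 library 1. Leaving out 1 library gave 0 to 1. Called lower were 1 (Rps2) with DESeq2, 1 with no filter and 0 to 1 with 1 library left out (1 without young vehicle library 2). For aged GW8510 over young vehicle, 4 were higher and 1 lower with DESeq2, 3 and 1 with no filter, 1 higher with DESeq2 size factors, 1 higher with only the 6 libraries, and 0 to 2 higher and 0 to 1 lower with 1 library left out. The cause was not tested. Rpsa passed in 1 of 9 fits with a library left out (without aged GW8510 library 4), with log2 fold changes of 0.87 to 1.12.

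Same-numbered libraries' deviations from their group means correlated at -0.21 to 0.14. Differently numbered libraries were not compared, so these values cannot show whether replicate numbers pair the libraries. With the replicate block, 0 members were higher and 1 lower (Rps2) for aged vehicle over young vehicle (median 0.36), and 1 lower for aged GW8510 over young vehicle.

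Rpl39l, with 34 counts, did not pass the filter on low counts. What limits each other member was not tested.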
